A study of Mus musculus with 6 samples.

Results

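The Ifi200, or HIN, gene cluster on mouse chromosome 1 was followed through 10 listed genes: Ifi203, Ifi204, Ifi205, Ifi207, Ifi208, Ifi209, Ifi211, Mnda, Mndal and Aim2. Members were the probe sets that the platform annotation assigns to these symbols, which gave 7 of the 22206 probe sets on the array. Ifi203, Ifi205 and Mnda had no probe set under those symbols and were not analysed here; the RefSeq gene table lists Mnda as a synonym of Ifi211. The genes were selected on the K313 minus WT differences of this same table, because Ifi204, Mndal and Ifi211 were seen to be higher in K313 as neighbours, so the members' levels and differences are given as a description, with no test.

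The samples were mouse HoxB8 neutrophil progenitors, cells that the transcription factor Hoxb8 holds in an immature state, after 1 day in a differentiation medium with serum and stem cell factor supernatant. Both groups were HoxB8 progenitors grown alike: the WT group, 3 arrays, expressed wild-type C/EBPα, and the K313 group, also 3 arrays, expressed the K313 form found in acute myeloid leukaemia. C/EBPα drives the making of granulocytes, and the comparison addresses what the mutant form does to the target programme of this factor. The labels do not say how the forms were introduced, whether a line is 1 clone, or whether replicates were separate cultures, so errors and p-values reflect only how far these arrays scatter, and that scatter may be technical.

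The cluster encodes proteins of the PYHIN family, most of which join a pyrin domain, which binds other pyrin domains, to a HIN domain, which binds double-stranded DNA. Interferons induce many of these genes through a response element that STAT and IRF factors bind. Aim2 is the cytosolic DNA sensor that builds an inflammasome with the adaptor ASC and caspase-1, while p204, the Ifi204 product, is known from nuclear DNA sensing, growth control and macrophage differentiation. The human counterparts include IFI16 and MNDA, the latter known as a nuclear antigen of myeloid cells.

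Promoter sequence is shown first, because neighbouring genes of the cluster share a stretch that holds the core of the interferon-stimulated response element (ISRE). RefSeq promoters of build GRCm38.p6, which run from 250 bases before to 50 after a start site, were matched for 6 of the 7 members and for 12 of the 13 protein-coding genes from Aim2 to Ifi205; Ifi204 was not matched. The ISRE core was searched on both strands as GAAA, 2 bases of any kind and GAAA. It was found in 9 of the 12 cluster genes with a promoter and in 4 of the 6 members, against 3.44% of all 32851 promoters in the table. In each window below the capitals mark that match, with 15 bases on each side.
Ifi211, chr1:173913059-173913098, minus strand: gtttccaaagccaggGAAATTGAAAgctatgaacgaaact
Ifi205, chr1:174031865-174031904, minus strand: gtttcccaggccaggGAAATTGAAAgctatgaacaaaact
Ifi207, chr1:173741826-173741865, minus strand: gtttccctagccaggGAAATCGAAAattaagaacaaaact
Mndal, chr1:173880199-173880238, minus strand: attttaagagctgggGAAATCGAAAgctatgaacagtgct
Ifi203, chr1:173942503-173942542, minus strand: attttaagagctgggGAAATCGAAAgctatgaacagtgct
Ifi208, chr1:173673592-173673631, plus strand: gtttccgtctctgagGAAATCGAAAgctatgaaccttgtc
Ifi213, chr1:173599321-173599360, minus strand: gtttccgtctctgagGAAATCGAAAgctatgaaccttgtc
Ifi206, chr1:173491334-173491373, minus strand: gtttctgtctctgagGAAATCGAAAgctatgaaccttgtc
Ifi214, chr1:173536012-173536051, minus strand: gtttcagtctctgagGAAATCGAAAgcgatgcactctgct
The match read GAAATTGAAA in Ifi211 and Ifi205 and GAAATCGAAA in the other 7 genes. It began 37 bases upstream of the start in Ifi211, 36 in Mndal, 41 in Ifi207 and 58 in Ifi208. The windows of Mndal and Ifi203 were the same sequence, as were those of Ifi208 and Ifi213. Mndal and Ifi205 held 1 further match each on the opposite strand, Mndal in a second RefSeq promoter.

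Ifi209 and Aim2 were the members whose promoter held no match to the ISRE core. The Ifi209 promoter shared 287 of 300 bases (95.7%) with that of Ifi214, so the stretch that aligns to the Ifi214 match is printed for comparison, with the aligned core in capitals.
Ifi209, chr1:173630765-173630804, plus strand: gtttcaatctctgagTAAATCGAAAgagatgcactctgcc
Counted from 1 at the 5′ end of the 40-base Ifi214 window, with the Ifi214 base first, Ifi209 differed by G7A, G16T, C27A and T40C. G16T lies at the first base of the core, and the other 3 lie outside it.

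The Aim2 promoter aligned closely with no other cluster promoter, sharing from 4 to 45 identical bases of 300 in alignments with free ends. Low counts also occurred between other pairs, such as 13 for Ifi202b with Ifi205 and 0 for Ifi202b with the Mndal promoter whose window is printed. Alignments with free ends can overlap in few bases, so such low counts do not measure how far sequences have diverged. The 250 bases upstream of its start and those of Ifi211 are printed because these 2 genes showed the only fall and the largest rise among the members. Capitals mark the ISRE core in Ifi211 and, in Aim2, GAGGAAG, the core bound by the myeloid factor PU.1.
Ifi211, chr1:173913047-173913296, minus strand: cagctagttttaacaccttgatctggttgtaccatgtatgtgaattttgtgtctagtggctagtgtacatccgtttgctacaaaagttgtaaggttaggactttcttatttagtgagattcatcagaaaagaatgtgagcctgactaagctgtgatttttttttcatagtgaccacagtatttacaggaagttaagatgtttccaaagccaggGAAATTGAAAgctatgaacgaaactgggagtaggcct
Aim2, chr1:173420354-173420603, plus strand: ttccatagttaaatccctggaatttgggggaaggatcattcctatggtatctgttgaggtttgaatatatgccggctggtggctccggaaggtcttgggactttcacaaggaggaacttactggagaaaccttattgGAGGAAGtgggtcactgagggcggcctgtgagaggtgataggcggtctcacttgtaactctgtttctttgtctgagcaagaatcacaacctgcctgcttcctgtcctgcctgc
Aim2 was the only one of the 12 cluster genes with a GAGGAAG match, which 13.6% of all promoters hold. A C/EBP motif, searched as TTGCNNAA, matched in 3 of the 6 members (Ifi208, Ifi209 and, in its second promoter, Mndal) and in 10.8% of all promoters. The map of motif matches labels it a palindrome, but the pattern need not read the same on both strands. On the gene's strand the matches read TTTTGCAA in Ifi208, TTCAGCAA in Ifi209 and TTGCTGAA in Mndal, and none was a palindrome. The STAT site TTCNNNGAA matched in Ifi202b and in none of the 6 members, against 8.3% of all promoters, and TATAAA matched in Ifi208 and Ifi209 and in 13.6% of all promoters. These searches covered both strands; a match is a run of letters, not a site shown to be bound. TTGCNNAA and TATAAA matched at separate positions in Ifi208 and Ifi209, as the map of motif matches shows.

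**Figure D1:**
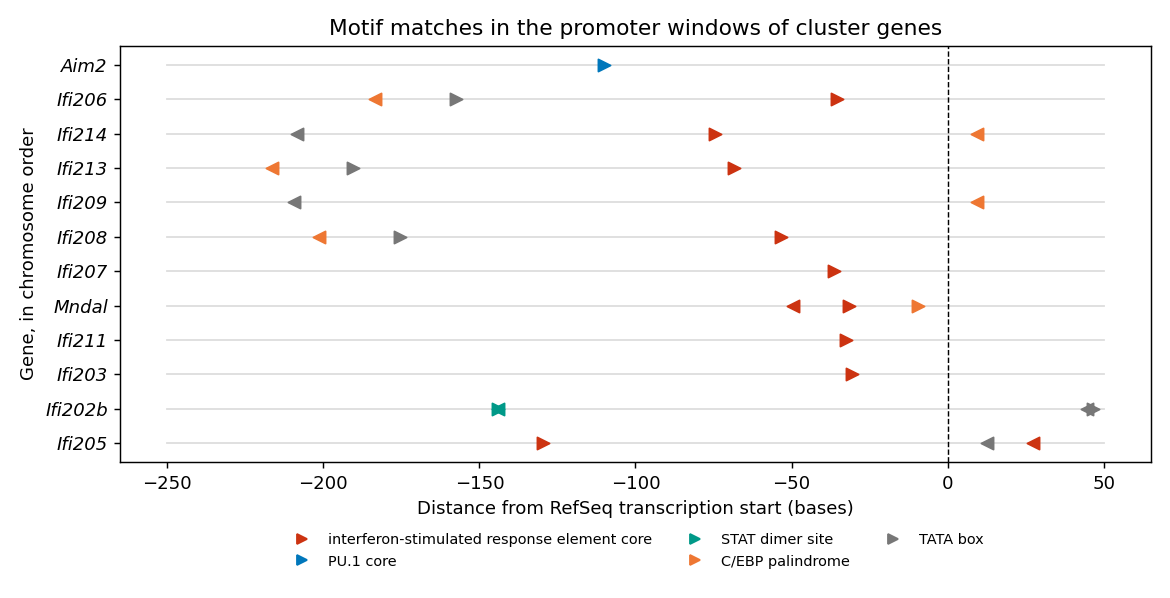
Matches to 5 motifs in the RefSeq promoter windows of 12 cluster genes, by distance from the start site in bases (dashed line). Triangles that point right are matches on the gene's strand and those that point left on the opposite strand; the ISRE core appears in 9 genes and is missing from the Aim2, Ifi209 and Ifi202b rows. Both Mndal promoters are drawn on 1 row.

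Among the 7 members on the array, 6 had higher mean levels in K313 and 1, Aim2, had a lower mean level. The 3 K313 arrays lay apart from the 3 WT arrays in 6 members, above them in 5 and below them in Aim2; over all probe sets, 21.9% had groups that did not overlap, 11% with K313 above and 10.9% with K313 below. In the limma fit over all probe sets, 4 members were past an adjusted p of 0.05 on the higher side and 1 on the lower side, where 7.75% of all probe sets passed. The rule chose the genes on this contrast, so nothing is read from these counts. The median difference was 1.22 on the log2 scale over the 7 members and 0.02 over all probe sets. Levels are the deposited log2 values, which run from 2.21 to 18.59 with array medians between 5.01 and 5.13, and levels near 5 or lower cannot be told from background here.

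Ifi211, the PYHIN gene that also carries the name Mnda, had the largest difference. Its log2 level was 8.24, 7.72 and 8.48 in WT replicates 1 to 3 and 11.81, 11.50 and 11.77 in K313. The lowest K313 array lay 3.02 log2 units above the highest WT array, a gap wider than the range within either group (0.76 in WT and 0.31 in K313). The means were 8.15 ± 0.39 (SD, n = 3) and 11.69 ± 0.17, a difference of 3.55 ± 0.21 (SE), or 11.7-fold. It took rank 69 among 22206 probe sets ordered from the largest rise.

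Ifi204 encodes p204. Its log2 level was 8.17, 8.32 and 8.37 in WT and 10.57, 10.52 and 10.19 in K313. The groups were separated by 1.82 log2 units, and the arrays within each group spanned at most 0.38. The difference was 2.14 ± 0.16 (SE), or 4.41-fold, and leaving out each array in turn gave 2.07 to 2.26. The difference ranked 186 among rises.

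Mndal, whose product resembles MNDA, lies between Ifi204 and Ifi211. It read 9.05, 8.67 and 8.82 in WT and 9.84, 10.18 and 10.17 in K313. All K313 arrays were above all WT arrays, by 0.79 log2 units at the closest. The difference, 1.22 ± 0.17 (SE) or 2.32-fold, was the smallest of the 3 neighbours the rule was built on.

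Ifi209, which RefSeq also lists as Pyhin1, read 5.74, 6.53 and 6.88 in WT and 8.61, 8.09 and 8.19 in K313. The WT arrays spanned 1.14 log2 units, more than in the other members with a clear signal, and still lay 1.21 units below the lowest K313 array. The difference was 1.91 ± 0.27 (SE), or 3.77-fold, and 1.59 without WT replicate 1, the lowest array.

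Ifi207 and Ifi208 were near background in WT. Ifi207 read 4.55, 4.38 and 4.25 in WT and 4.89, 4.90 and 6.48 in K313. Its groups did not overlap, but the K313 arrays spanned 1.59 units, with replicate 3 far above the other two, and the difference of 1.03 ± 0.36 (SE) was 0.50 without that array. Ifi208, listed in RefSeq also as Pydc3, a name for proteins with a pyrin domain alone, read 4.52, 4.54 and 4.01 in WT and 4.85, 5.49 and 4.35 in K313. K313 replicate 3 lay below WT replicates 1 and 2, so the groups overlapped, and the difference of 0.54 ± 0.27 (SE) was 0.24 without K313 replicate 2, 0.37 without WT replicate 3 and 0.81 without K313 replicate 3.

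Aim2, the inflammasome sensor, went the other way. Its log2 level was 10.88, 11.12 and 11.12 in WT and 9.96, 9.93 and 9.52 in K313. Every K313 array was below every WT array, by 0.92 units at the closest, and both groups were well above the array medians. The difference was -1.24 ± 0.17 (SE), a 2.36-fold lower level in K313, and leaving out each array in turn gave -1.32 to -1.10. It ranked 311 among 22206 probe sets ordered from the largest fall.

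**Figure D2:**
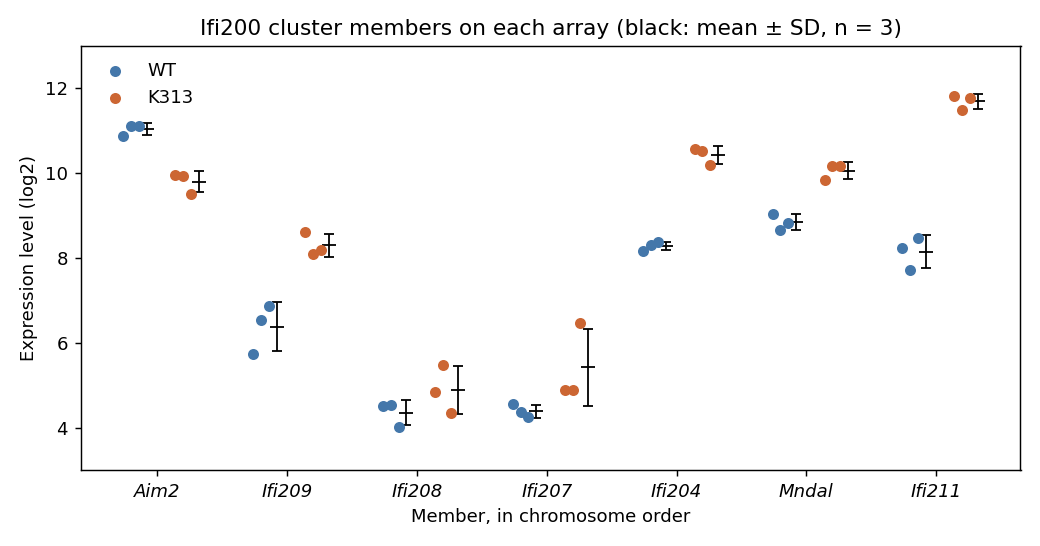
Log2 expression level (vertical axis) of the 7 members on each of the 3 WT (blue) and 3 K313 (orange) arrays, in chromosome order, with the mean ± SD in black. K313 lies above WT in Ifi209, Ifi207, Ifi204, Mndal and Ifi211, overlaps with it in Ifi208 and lies below it in Aim2; levels of different probe sets are not comparable.

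The members differed in how tightly their arrays agreed. The pooled SD within groups ran from 0.16 in Ifi204 to 0.66 in Ifi207, beside a median of 0.215 over all probe sets. Aim2, Ifi204 and Mndal lay under that median, while Ifi211, Ifi209, Ifi208 and Ifi207 lay above it.

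WT replicate 3 stood apart from the other WT arrays in Y-linked genes. Eif2s3y, chosen for this purpose after its values were seen, read 3.11, 2.93 and 7.03 in WT and 12.37, 12.09 and 12.24 in K313, so Y-linked transcripts also differed between the groups. Across all probe sets, arrays correlated at 0.994 to 0.996 within groups and 0.983 to 0.989 between them. WT replicate 3 was the WT array closest to each K313 array here too. It correlated with them at 0.987 to 0.989, against 0.983 to 0.986 for WT replicates 1 and 2. Without WT replicate 3 the member differences were 3.71 for Ifi211, 2.18 for Ifi204, 2.16 for Ifi209, 1.20 for Mndal, 0.96 for Ifi207, 0.37 for Ifi208 and -1.20 for Aim2. Every difference kept its sign with this array left out. For the 6 members with groups apart this was certain, because leaving out an array cannot make separate groups overlap. Only Ifi208, whose groups overlapped, could have changed sign. The part of the Y-linked difference in the members' values was not tested.

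**Figure D3:**
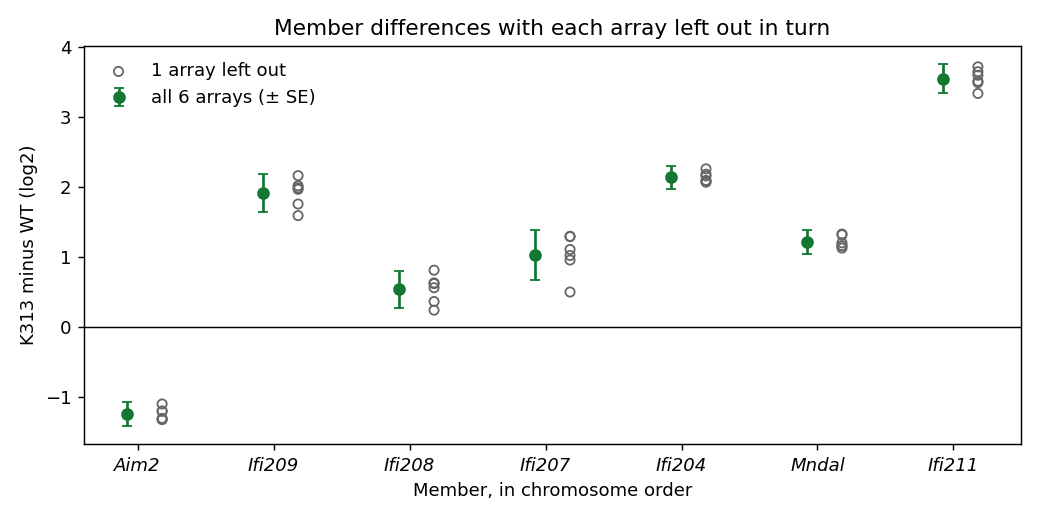
K313 minus WT difference (log2) of each member with all 6 arrays (green, ± SE) and with 1 array left out in turn (open circles). Signs do not change; Ifi207 drops to 0.50 without K313 replicate 3, while Ifi211 stays between 3.33 and 3.71.

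In the RefSeq order of genes, used here only for which genes neighbour each other, the 7 members and Ifi214 and Ifi213 form an unbroken run of 9 genes with a probe set, from Aim2 at one end to Ifi211 at the other. Ifi213, which RefSeq also lists as Pydc4, rose by 1.05 ± 0.25 (SE), from 5.47, 5.15 and 4.65 in WT to 5.69, 6.20 and 6.53 in K313 (limma adjusted p = 0.0261, n = 3 per group). That call was lost without K313 replicate 2 (adjusted p = 0.0959), K313 replicate 3 (0.118), WT replicate 2 (0.0581) or WT replicate 3 (0.0982). Ifi214 read 4.64, 4.15 and 4.67 in WT and 5.81, 4.89 and 5.37 in K313, a difference of 0.87 ± 0.24 that did not pass (limma adjusted p = 0.0507). It passed with an intensity trend and robust prior (0.0426), without the lowest 30% of probe sets (0.0406) and without K313 replicate 2 (0.0193). Thus Aim2, at the edge of the run, had the 1 negative difference, and the 8 measured genes after it had differences from 0.54 to 3.55. Of these, Ifi214, Ifi213, Ifi208 and Ifi207 were near background in WT, with means of 4.49, 5.09, 4.36 and 4.39. Ifi206 lies between Aim2 and Ifi214 and was not analysed here.

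Of the nearest 5 measured genes on each side, 0 of 10 passed with limma (at an unadjusted p under 0.05, Olfr433 and Olfr427 did). They were Fcer1a, Olfr418, Mptx2, Ackr1 and Cadm3 before Aim2 and the olfactory receptor genes Olfr433, Olfr432, Olfr430, Olfr429 and Olfr427 after Ifi211. Their differences ran from -0.51 (Olfr427) to 0.55 (Olfr433), with limma adjusted p-values of 0.101 and 0.222 for these 2. The K313 arrays lay below the WT arrays in Olfr427, at levels near background, and the groups overlapped in the other 9. In 9 of the 10 both group means were under 5, so these flanks were near background and a difference in them would be hard to see. Ifi203, Ifi202b and Ifi205 lie between Ifi211 and Olfr433 and were not analysed here.

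**Figure D4:**
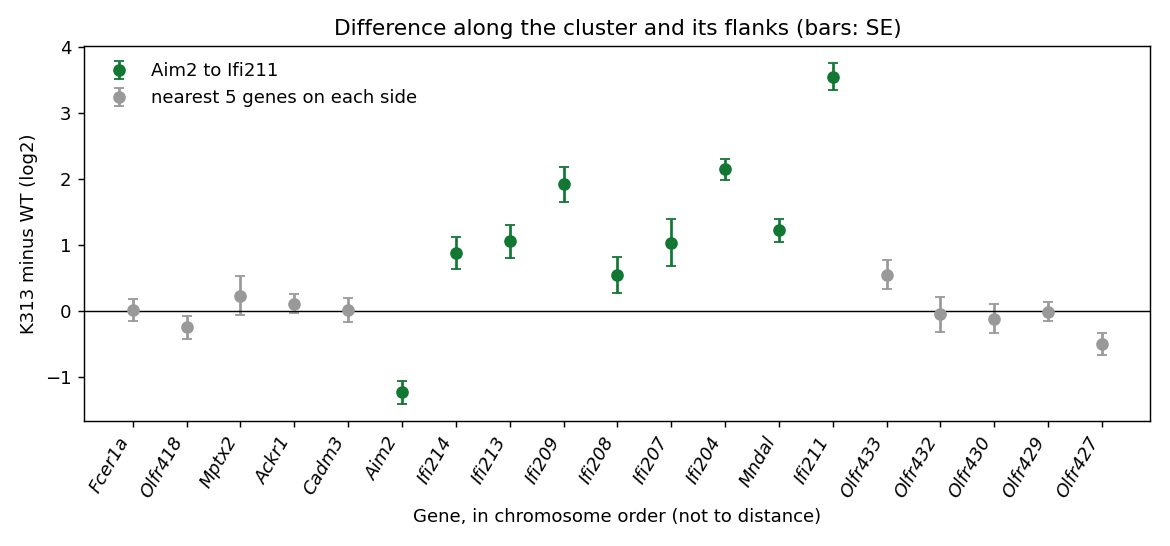
K313 minus WT difference (log2, ± SE) of the 9 measured cluster genes (green) and the nearest 5 measured genes on each side (grey), in chromosome order and not to distance. The cluster genes after Aim2 lie above 0 and Aim2 at -1.24; the flanking genes lie between -0.51 and 0.55.

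Close relatives in this cluster can share sequence. Besides the pair Ifi214 and Ifi209, promoter windows shared 282 of 300 bases between Mndal and Ifi203 and between Ifi213 and Ifi208, and 260 between Ifi207 and Ifi211. Probe sequences were not used here, so whether a probe set also reads a relative's transcript was not tested. Ifi207 and Ifi211, with 86.7% of promoter bases in common, had differences of 1.03 and 3.55, and Ifi213 and Ifi208, with 94%, had 1.05 and 0.54. Of the 300 bases, 250 lie upstream of the start, so these shares do not measure how alike the transcripts are. Ifi207, Ifi208 and Ifi213 were near background in WT.

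The profile most like that of Ifi204 among genes outside the members, by Euclidean distance between log2 profiles centred on their own means over the 6 arrays, was that of Sec24d, a coat protein of vesicle export from the endoplasmic reticulum (distance 0.30). Next came the sorting nexin Snx10 (0.31), the semaphorin receptor Plxnd1 (0.40), the transcription factor Klf5 (0.41) and the membrane protein Megf9 (0.47). Among the members, Ifi209 was closest to Ifi204 (0.82), followed by Mndal (1.30), Ifi211 (1.86), Ifi207 and Ifi208 (both 2.12) and Aim2 (4.14). The 6 arrays fall into 2 groups, so this measure mostly reads the size of the difference between them.

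Other interferon and DNA-sensing genes were read from 5 lists holding 121 distinct probe sets outside the members. One of these lists is that of the other cluster genes, Ifi213 and Ifi214. Of the 121, 19 rose, Ifi213 among them, and 5 fell in K313 (limma adjusted p under 0.05), with a median difference of 0.06. Over all probe sets 3.77% rose and 3.97% fell, with a median of 0.02. Without WT replicate 3, 20 of the 121 passed in place of 24. With the arrays shifted to a common median, 727 probe sets of the whole table rose and 1064 fell, in place of 838 and 882.

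Genes that act with Aim2 or beside it in DNA sensing went both ways. Of 27 probe sets, 5 rose and 2 fell, with a median difference of 0.06. Casp1, the protease that the Aim2 inflammasome activates, was chosen after its values were seen; it read 11.76, 11.25 and 11.53 in WT and 10.61, 10.50 and 10.63 in K313, and fell by 0.93 on the log2 scale (SE 0.17, limma adjusted p = 0.00523). Its groups did not overlap, which held for 21.9% of all probe sets. Casp4 and Gsdmd of the same list, also chosen after their values were seen, had higher means in K313. Casp4 rose by 0.91 ± 0.22 (limma adjusted p = 0.0243), and Gsdmd differed by 0.37 ± 0.16 and did not pass (0.251). Pycard, which encodes the adaptor ASC and was chosen the same way, read 10.23, 10.20 and 10.23 against 10.00, 9.84 and 10.22, a difference of -0.20 ± 0.16 that did not pass (adjusted p = 0.607). Nlrc4, the sensor of another inflammasome, fell by 1.57 ± 0.17 (adjusted p = 0.000105) to levels under 5.

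Among the rises, Sting1, the adaptor that carries the signal of cytosolic DNA to interferon genes, went from 12.99, 12.46 and 12.85 to 13.88, 14.06 and 14.23 (1.29 ± 0.18 (SE), limma adjusted p = 0.000898). Cgas, the enzyme that makes the Sting1 ligand, was chosen after its values were seen and differed by 0.06 ± 0.27. Nlrp3, another inflammasome sensor, rose by 1.68 ± 0.28 (adjusted p = 0.00298) from WT levels under 5. Xrcc5, a subunit of the Ku DNA end-binding complex, rose by 2.29 ± 0.22 (adjusted p = 4e-05), also from WT levels under 5. The rises in this list numbered 3 without K313 replicate 1, K313 replicate 3 or WT replicate 1.

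Interferons, their receptors and signal carriers held 1 higher and 1 lower call among 27 probe sets, with a median difference of 0.01. That share is near the 7.75% called over all probe sets. Ifngr1, a chain of the interferon gamma receptor, rose by 0.85 ± 0.19 (limma adjusted p = 0.0182), a call lost without K313 replicate 1, K313 replicate 3 or WT replicate 2 (adjusted p from 0.0604 to 0.0835). Usp18, an interferon-induced brake on the type I receptor, fell from 5.25, 5.31 and 5.31 to 4.58, 4.58 and 4.48 (-0.74 ± 0.15, adjusted p = 0.0079). Jak2 (-0.64 ± 0.19, adjusted p = 0.0678) and Irf8, a monocyte factor of the IRF family (0.58 ± 0.17, adjusted p = 0.0716), did not pass. The kinase gene Jak2 passed without K313 replicate 1 (0.0443), without WT replicate 1 (0.0432), with array weights (0.0481) and with a common median (0.0448), and Irf8 without K313 replicate 1 (0.0397). Ifnb1, the interferon beta gene, chosen after its values were seen, stayed near background in both groups, at 4.12 to 4.61 in WT and 4.23 to 4.78 in K313.

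Interferon-stimulated genes outside the cluster were read beside all probe sets, of which 3.77% rose and 3.97% fell. Of 53 probe sets, 8 rose, 2 fell and 43 did not pass, with a median difference of 0.12, and both group means were under 5 in 23. Ifih1, the cytosolic sensor of double-stranded RNA, had the largest rise, from 5.33, 4.89 and 5.75 to 8.50, 7.61 and 9.03 (3.06 ± 0.33 (SE), limma adjusted p = 0.000102). Parp12 rose by 0.87 ± 0.15 within levels near background (adjusted p = 0.004), while Uba7, the enzyme that activates the ubiquitin-like protein ISG15, fell by 1.43 on the log2 scale (SE 0.20, adjusted p = 0.000837) and the antiviral gene Samd9l fell by 1.47 (SE 0.26, adjusted p = 0.00439). The rises numbered 4 without K313 replicate 1, 5 without K313 replicate 2 or K313 replicate 3, and 6 without WT replicate 3.

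Isg15, Ifit1, Mx1, Rsad2 and Oas1a, 5 interferon-induced genes chosen here after their values were seen, read near background in both groups. Isg15 read 3.63, 3.28 and 3.32 in WT and 3.40, 3.79 and 3.47 in K313, a difference of 0.14 ± 0.17 (SE). Ifit1 differed by 0.13 ± 0.17, Mx1 by 0.14 ± 0.22, Rsad2 by 0.26 ± 0.19 and Oas1a by 0.07 ± 0.16, with no WT or K313 array above 4.80. These 5 did not pass (limma adjusted p from 0.564 to 0.883). At such levels a change is compressed and may not be detectable. Other genes of the list, named after their values were seen too, read differently. Ifit2, of the same family as Ifit1, rose by 1.01 ± 0.23 (limma adjusted p = 0.0198) and Trim30a by 1.20 ± 0.25 (0.0129), while Bst2 read 13.38 to 14.20 over the 6 arrays and did not pass.

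Interferon-inducible GTPases, which attack vacuoles of intracellular microbes, held 4 rises and 0 falls among 12 probe sets, with a median difference of 0.11 (at an unadjusted p under 0.05, limma gave 1 fall, Irgm1). Gbp7 rose from 6.80, 7.24 and 7.68 to 10.38, 10.02 and 9.70, by 2.79 ± 0.24 (SE, limma adjusted p = 2.2e-05). Gvin1 rose by 1.52 ± 0.24 (adjusted p = 0.00204), and Tgtp2 and Gbp3 rose by 1.74 ± 0.28 and 1.76 ± 0.30 (0.00217 and 0.00342) from WT means under 5. The list kept 4 rises in each fit that left out 1 array.

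**Figure D5:**
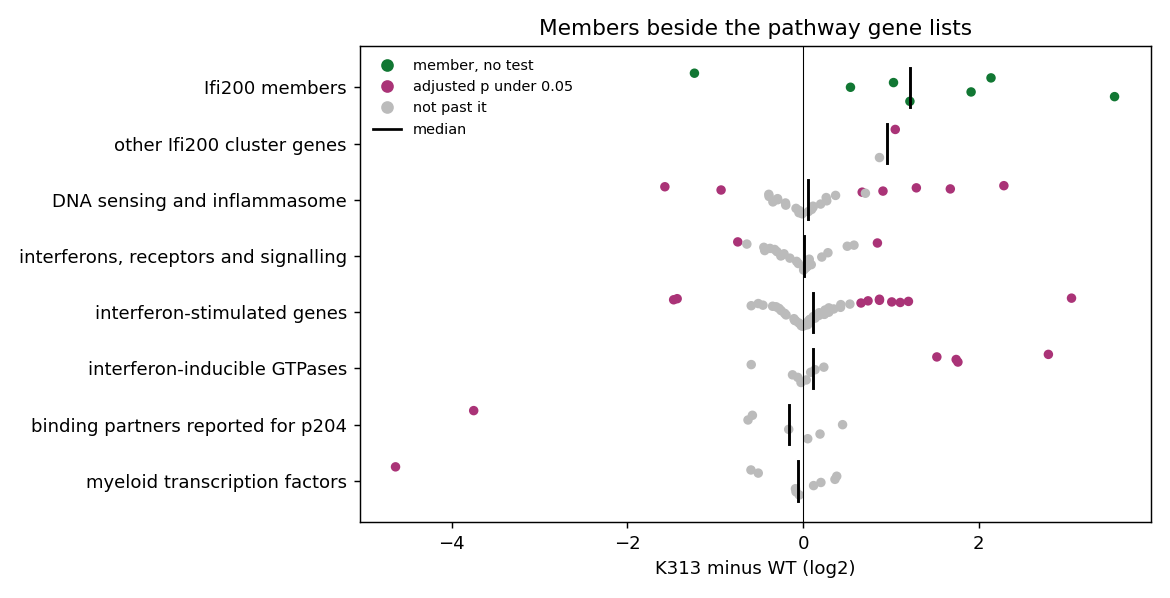
K313 minus WT difference (log2) of each probe set, by list: the 7 members (green, no test), then 7 other lists with probe sets past an adjusted p of 0.05 in purple and the others in grey; black lines are medians. The median is 1.22 for the members and between -0.16 and 0.96 for the other lists.

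Proteins reported to bind p204 include the retinoblastoma protein, the ribosomal transcription factor UBF and the Id inhibitors of differentiation. Of 7 such genes, 1 fell and 0 rose (at an unadjusted p under 0.05, limma gave 3 falls and 0 rises), with a median difference of -0.16. Id2 fell from 11.24, 11.46 and 10.04 to 7.10, 6.52 and 7.87 (-3.75 ± 0.39 (SE), limma adjusted p = 7.66e-05). Id1 (-0.58 ± 0.18), Rbl2 (-0.63 ± 0.26) and Rb1 (0.45 ± 0.26) did not pass, although Id1 passed without K313 replicate 3 (adjusted p = 0.0297). Of 10 myeloid transcription factors, Hoxb8 alone passed (-4.64 ± 0.25, adjusted p = 1.15e-06). Cebpa (-0.51 ± 0.21, adjusted p = 0.212), Runx1 (-0.59 ± 0.19, 0.0983) and Cebpd (0.38 ± 0.16, 0.235) did not, and the effects of Hoxb8 and of the C/EBPα form on the members cannot be told apart.

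The labelled cell type was checked on marker lists. Of 8 neutrophil progenitor markers, 4 rose with limma, the granule protease genes Elane (3.29 ± 0.28, SE), Ctsg (1.75 ± 0.16) and Prtn3 (0.94 ± 0.17) and the membrane protein gene Ms4a3 (0.81 ± 0.18). In the same list Hoxb8 fell by 4.64 ± 0.25 and Cd34 by 0.93 ± 0.15, and Kit and Mpo did not pass. Mpo, myeloperoxidase, read 18.36 to 18.51, near the top of the scale. The list's summed level, on the log2 scale, was 19.06 to 19.17 in WT and 19.36 to 19.40 in K313. Of 6 mature neutrophil probe sets, 4 had both means under 5, among them the granule genes Ltf and Camp at 3.07 to 3.61, and Cxcr2, a chemokine receptor, fell by 2.08 ± 0.15. Ngp, a granule protein gene of that list, differed by 1.39 ± 0.42 and did not pass (limma adjusted p = 0.0752). The summed mature neutrophil level was 10.40 to 10.57 in WT and 8.49 to 8.85 in K313. It was mostly Cxcr2, which read 10.34 to 10.52 in WT and 8.24 to 8.43 in K313, while Ngp was higher in each K313 array. Such sums are set mostly by the probe sets that read highest, such as Cd79b in the B cell list in WT. Levels of different probe sets are not comparable, so a sum does not measure the amount of a cell type. Of 8 monocyte and macrophage markers, cells in which PYHIN genes are also expressed, 5 rose and 2 fell with limma, and their summed level, on the log2 scale, was 12.51 to 12.95 in WT and 14.82 to 15.18 in K313. In that list Csf1r, the receptor for the macrophage growth factor, differed by -0.41 ± 0.29 and did not pass, Adgre1 fell, and Cd14 rose from 4.24 to 5.89 in WT to 9.52 to 9.62 in K313. The summed dendritic cell level was 13.41 to 14.20 in WT and 14.09 to 14.22 in K313, and those of B cells and of erythroid cells and megakaryocytes were lower in each K313 array than in any WT array, at 9.48 to 10.16 against 7.21 to 7.56 and 11.38 to 11.58 against 8.74 to 9.11. The summed basophil and mast cell level was 17.53 to 17.82 in WT and 17.00 to 17.20 in K313; of its 8 markers 4 fell and 1, the mast cell protease gene Prss34, rose by 3.98 ± 0.21. The part of such cells in the members' values was not tested, and in bulk RNA fewer cells of a type and less RNA per cell cannot be told apart.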

How the data were processed

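Total RNA of the 6 samples was hybridised to Affymetrix Mouse Clariom S arrays, 1 array per sample. The deposited values are log2 expression per probe set, made by the authors with RMA and the Transcriptome Analysis Console, per the submitters' processing notes; versions, settings and the array's genome build are not given in the sources used here. RMA brings the probe intensities of arrays to a common distribution and compresses low signals. The deposited probe set levels still differed between arrays, with medians from 5.01 to 5.13. Arrays have no read depth; 3 per group limit the precision (median SE 0.18).

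The 22206 probe sets were fitted with limma 3.58.1 in R 4.3.3 (group as the only term, default eBayes prior, two-sided), with Benjamini-Hochberg adjustment over all of them and a threshold of 0.05. Differences are K313 minus WT. Symbols came from the platform annotation: 19572 probe sets have 1 symbol, 0 several and 2634 none. The members, gene lists and motifs were chosen with earlier results of these data known. Named genes are all members, the other cluster genes, up to 4 genes per list with the smallest p, the nearest 5 measured genes on each side and the 5 profiles nearest to Ifi204; others are marked as chosen afterwards. Marker genes, a list of their own, were named as a check. Promoters were aligned with Biopython 1.88. A planned comparison of protein sequences was not run.

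The alternatives tried were array weights, quantile normalization, arrays shifted to 1 median, a fit without the lowest 30% of probe sets, a robust eBayes prior with an intensity trend, a replicate block, and each array left out in turn.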

Additional observations from a re-analysis of the deposited data

How the results depend on the processing

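All 84 alternative values of the 7 member differences kept their sign and moved by less than the pooled SD between replicates. In each setting 6 or 7 members had groups apart. Much of this was fixed in advance. With 3 arrays per group, leaving out 1 cannot move a difference by the pooled SD or make separate groups overlap. The intensity trend, the replicate block and the removal of low probe sets give the main differences again. Only array weights, quantile normalization and the common median could have moved a difference further. Over all probe sets, 1720 passed, and 1228 to 1465 when 1 array was left out. Genes of the 7 pathway lists past the threshold numbered 26, and 20 to 23 with 1 array left out. Leaving out 1 array gave 3 to 5 rises in the DNA sensing list, 4 to 6 in the interferon-stimulated genes, 0 to 1 in interferon signalling (with 1 to 2 falls), 0 to 1 among the other cluster genes, 0 to 1 falls among the GTPases and 1 to 2 falls among the p204 partners. Falls in interferon signalling numbered 2 with array weights and 2 with a common median, Jak2 being the addition. Rises among the other cluster genes numbered 2 with an intensity trend and robust prior and 2 without the lowest 30% of probe sets, where Ifi214 was added.

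Same-numbered arrays did not deviate together (correlations of -0.06, 0.03 and -0.06), so no sign of pairing by replicate number was seen. The labels do not say whether the samples were paired. With the replicate number as a block, 1546 probe sets passed in place of 1720; Ifi213 missed the threshold (limma adjusted p = 0.058) and Ifi214 passed it (0.0172). The low levels of Ifi207, Ifi208, Ifi213, Ifi214 and the flanking genes limit what can be read from them.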
